A study of Mus musculus with 55 samples.

Results

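The metallothioneins Mt1 and Mt2, their transcription factor Mtf1 and the zinc transporters Slc30a1, Slc39a8 and Slc39a14 were measured in the lungs of mice given arsenic (As) or the glucocorticoid dexamethasone. The probe sets, the groups of short probes by which an array reads a transcript, were taken where their annotation carried only 1 of these 6 gene symbols. These are 6 of 18193 genes with such a probe set, and 16 of the 45037 probe sets tested: 2 for Mt1, 1 for Mt2, 5 for Mtf1, 2 for Slc30a1, 2 for Slc39a8 and 4 for Slc39a14. Each of 55 male C57BL/6 mice, aged 6 weeks at the start and acclimated for 2 weeks, gave 1 Affymetrix array of whole lung. In the first set of 20 mice, all on the purified AIN-76A diet, 5 each were injected into the peritoneum with both dexamethasone (1 mg/kg) and sodium arsenite (1 mg/kg), with dexamethasone alone, with arsenite alone or with saline, and lungs were taken 8 h later. In the second set, on the AIN-76A diet for 5 weeks, 4 mice drank water with 10 ppb As, 4 drank water with 100 ppb As, 5 ate food with 10 ppb As and 5 were controls. The third set had the same treatments on the LRD-5001 diet, with 5, 3, 5 and 4 mice. Below, 3 arrays of low quality are left out (arsenite mouse E, AIN 100 ppb water mouse B and LRD 10 ppb water mouse C), which leaves 52 arrays and 3 to 5 mice per group.

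Metallothioneins are small proteins rich in cysteine that bind zinc, copper and other metals. The transcription factor MTF-1, encoded by Mtf1, senses free zinc, binds metal response elements in promoters and raises transcription of Mt1, Mt2 and the zinc exporter gene Slc30a1. Glucocorticoids also raise Mt1 and Mt2, through the glucocorticoid receptor. Slc39a8 and Slc39a14 encode importers that bring zinc and other divalent metals into the cell. Whether the metalloid and the steroid moved these genes apart can be asked of the injected mice, which received either agent alone or both.

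Sequence before the start sites of a promoter table is shown, because MTF-1 is known to bind metal response elements in promoters. Of the 6 genes, 5 matched entries of the RefSeq promoter table (build GRCm38.p6), with 6 windows since Slc39a8 has 2 starts. Slc39a14 (chromosome 14, 70303467 to 70351452) is named only. Mt2 (chromosome 8, 94172618 to 94173567) and Mt1 (chromosome 8, 94178883 to 94180327) are neighbours, and the starts used here lie 6471 bases apart. The 250 bases before the Mt2 start, chr8:94172368-94172617 on the plus strand, are written 5′ to 3′ with cores of the metal response element (TGCACNC or TGCGCNC, either strand) in capitals. For Mt1 (chr8:94179055-94179084) and Slc30a1 (chr1:191906727-191906756), both on the plus strand, only 30 bases around the 1 core are shown. There the start of the table lies 206 and 84 bases inside the annotated gene. Both fragments, cores included, thus lie inside the annotated genes and not upstream of them. The Mt1 window searched (94178839 to 94179088) holds few bases upstream of the annotated gene. Its count of cores can therefore not be set against that of Mt2.
Mt2: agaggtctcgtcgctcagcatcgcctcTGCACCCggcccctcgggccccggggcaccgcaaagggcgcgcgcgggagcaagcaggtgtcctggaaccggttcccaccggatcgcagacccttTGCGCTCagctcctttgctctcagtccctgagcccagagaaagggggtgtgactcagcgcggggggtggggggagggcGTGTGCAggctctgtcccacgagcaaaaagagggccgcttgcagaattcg
Mt1: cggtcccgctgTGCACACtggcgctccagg
Slc30a1: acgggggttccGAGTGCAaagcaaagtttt
The Mt2 window held 3 cores, which began 223, 128 and 50 bases before the start. At least 1 core was in 21.4% and at least 3 were in 1.26% of the 32851 promoter windows of this length. One of the 2 Slc39a8 windows held 1 core, and the Mtf1 window held none. Both Slc39a8 windows, which begin at 135825029 and 135825407, lie inside the annotated gene, which starts at 135816882. The motif AGAACA of the glucocorticoid receptor, on either strand, was found in the Mtf1 window alone, and in 16.1% of all windows. The antioxidant response element core TGACNNNGC, the site of the oxidative stress factor NRF2, was found once each in the windows of Mt2, Slc30a1 and Slc39a8, and in 10.2% of all windows. The glucocorticoid response elements known for the mouse metallothionein locus lie further upstream than these windows reach.

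The values are log2 values from robust multiarray averaging (RMA), and a difference of 1 is a 2-fold change. The medians of the 52 arrays ran from 4.245 to 4.369 and their SDs from 2.294 to 2.418. The 3 arrays left out had SDs of 1.17, 1.89 and 2.23. All 8 endothelial and all 6 alveolar type II markers were above log2 6 on average, as were 3 of 5 markers of ciliated cells. The arrays fall into 5 batches by the first part of the raw array file name, and levels differed between these batches. A test for batch across the 3 sets passed for 20835 probe sets, 46.3% of those tested, and for 8 of the 16 probe sets described here. Mt1 stood among them, with arrays of batch 1 at 0.64 and of batch 3 at 0.47 above the average batch and those of batches 2, 4 and 5 at 0.31, 0.40 and 0.40 below it (limma, adjusted p = 1.07e-06). For Mt2 the batch test gave an adjusted p of 0.080. Without the low quality array the arsenite group has no array of batch 1 or batch 3, whereas the saline group has 1 and 2. The main Mt1 and Mt2 changes against saline and between the 2 agents are therefore given without and with the batch as a block.

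Arsenite alone was followed by the lowest Mt1 and Mt2 means of all 12 groups. Mt1 read 9.26, 9.74, 9.52 and 9.61 in arsenite mice A, B, C and F, against 11.15, 11.15, 9.91, 10.06 and 10.56 in saline mice B to F. Mt2 read 7.73, 7.79, 7.99 and 8.04 in these arsenite mice, against 9.43, 9.63, 8.14, 8.80 and 8.66 in the saline mice. Every arsenite mouse was below every saline mouse for both genes. In a bulk tissue, fewer cells of a type and less RNA per cell cannot be told apart.

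The Mt1 mean was 9.53 ± 0.20 with arsenite (SD, n = 4) and 10.57 ± 0.58 with saline (SD, n = 5), a log2 change of −1.03 (95% confidence interval −1.94 to −0.13). The Mt2 mean was 7.89 ± 0.15 with arsenite and 8.93 ± 0.60 with saline, a change of −1.04 (−2.05 to −0.03). These are levels 2.05 times and 2.06 times lower. Neither passed the test across all probe sets, with adjusted p of 0.71 for Mt1 and 0.75 for Mt2 in limma, and 0 of 45037 probe sets (0%) passed in that comparison, 2980 having an unadjusted p below 0.05. The exact permutation test of the single genes, two-sided and unadjusted, gave p = 0.0238 for Mt1 and p = 0.0159 for Mt2, where the smallest p that 4 against 5 mice allow is 0.0079. Of the 84 exact tests made over the 6 genes and 14 pairs of groups, 10 gave p below 0.05. Leaving out each mouse in turn moved the change between −1.20 and −0.89 for Mt1 and between −1.24 and −0.87 for Mt2. Both genes were 2 of the 16 probe sets in which the groups did not overlap, as were 2.58% of all probe sets.

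The difference was smaller with the batch in the model. With batch as a block the change was −0.30 for Mt1 (−0.99 to 0.38) and −0.39 for Mt2 (−1.37 to 0.58), and 0 of 45037 probe sets (0%) passed. Mice of the same batch could be compared in batches 2 and 5: arsenite minus saline was −0.65 and −0.50 for Mt1, and −0.41 and −0.78 for Mt2. With the low quality arsenite array added, on which Mt1 read 4.19 and Mt2 5.21, the changes became −2.10 and −1.58. That array read lower than the others for Slc30a1 and Slc39a8 as well.

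**Figure D1:**
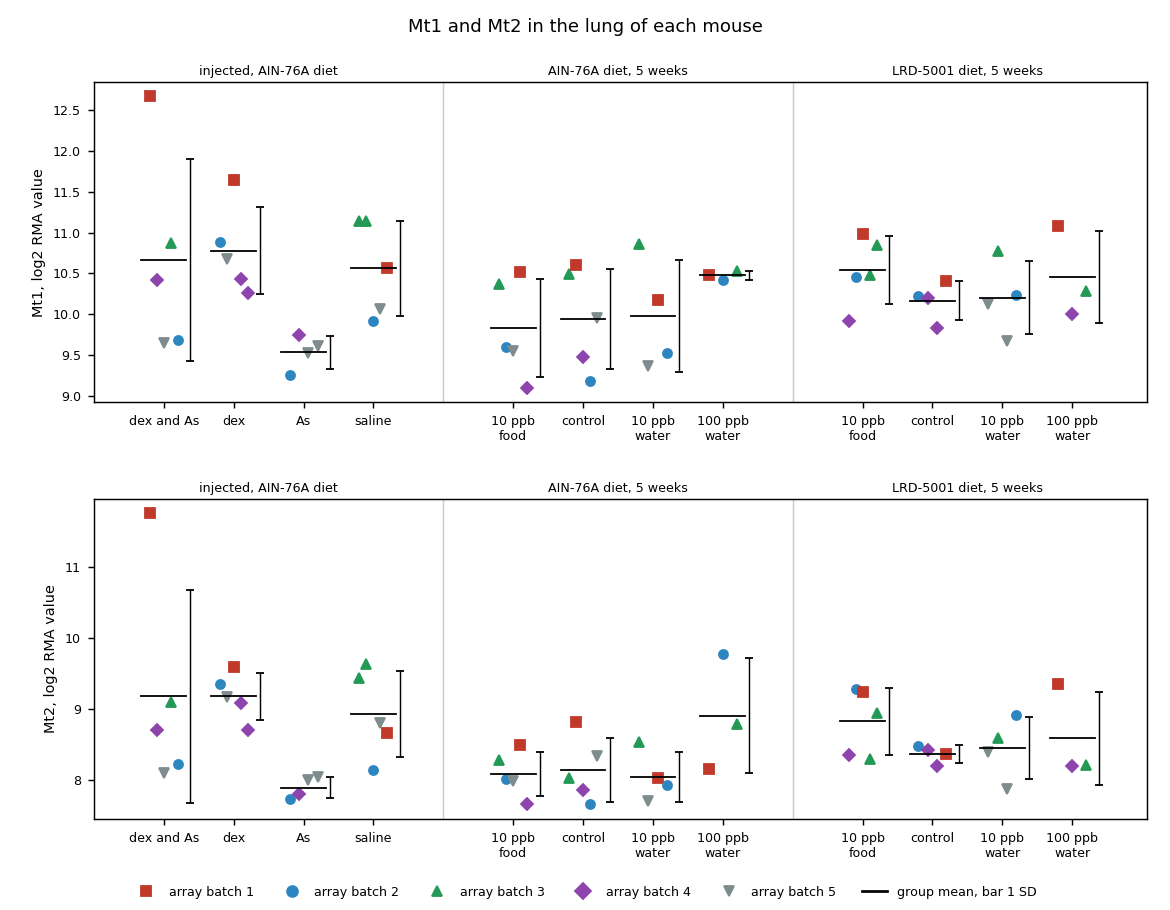
Log2 RMA value of Mt1 (upper panel) and Mt2 (lower panel) in each mouse of the 12 groups, with marker shape and color for the 5 array batches, the group mean as a line and 1 SD as a bar. The 4 arsenite mice lie between 9.26 and 9.74 for Mt1, below all saline mice, and mouse A of the combined injection stands at 12.67.

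Dexamethasone alone had the highest mean of both metallothioneins among the 12 groups, but its difference from saline was within the spread between mice. Mt1 read 10.88, 10.68, 11.64, 10.44 and 10.26 in dexamethasone mice A, B, C, E and F, and Mt2 read 9.35, 9.16, 9.58, 9.08 and 8.70. These values overlap those of the saline mice. The Mt1 mean of 10.78 ± 0.54 with dexamethasone and 10.57 ± 0.58 with saline (SD, n = 5 each) gave a change of 0.21 (−0.64 to 1.07, limma adjusted p = 0.95). For Mt2 the means were 9.17 ± 0.33 with dexamethasone and 8.93 ± 0.60 with saline, with a change of 0.24 (−0.71 to 1.20, adjusted p = 0.95). None of the 16 probe sets passed, against 0.651% of all probe sets.

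Within the 3 shared batches the dexamethasone mouse was higher than the saline mouse for both genes. The other 2 dexamethasone mice were in batch 4 and the other 2 saline mice in batch 3. Neither of these batches held a mouse of the other group. The difference for Mt1 was 1.08, 0.97 and 0.62 in batches 1, 2 and 5, with 1 mouse of each group, and for Mt2 it was 0.93, 1.22 and 0.37. With batch as a block the changes were 0.64 for Mt1 (−0.01 to 1.29, limma adjusted p = 0.43) and 0.65 for Mt2 (−0.28 to 1.57, adjusted p = 0.62). Still 0 of 16 passed, against 1.25% of all probe sets. The groups did not overlap in 0 of 16 probe sets, and in 2.14% of all.

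The 2 agents were also compared directly. Against dexamethasone, the log2 change in arsenite mice was −1.25 (−2.15 to −0.34) for Mt1 and −1.29 (−2.30 to −0.27) for Mt2, with the 4 arsenite mice below all 5 dexamethasone mice for both. The exact permutation test gave p = 0.0079 for each gene, the smallest this design allows. The adjusted p of limma was 0.25 for Mt1 and 0.31 for Mt2, so 0 of 16 passed, against 0.901% of all probe sets. Groups without overlap were found for 2 of 16 probe sets and for 5.16% of all. With batch as a block the changes were −0.94 for Mt1 and −1.04 for Mt2 (adjusted p = 0.13 and 0.26), and 0 of 16 passed, against 1.67% of all.

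Both genes were lower with arsenite in each of the 3 batches that hold the 2 groups, with differences of −1.62, −0.61 and −1.12 for Mt1 and −1.62, −1.10 and −1.15 for Mt2. The arsenite mice are those also set against saline above. Calls were reached in 2 settings chosen after the data had been seen. Without the arrays of batch 1 Mt2 passed (−1.18, limma adjusted p = 0.0325), 1 of 16 against 1.19% of all probe sets. With batch as a block and without mouse A of the combined injection, Mt1 (−1.07, adjusted p = 0.0045) and Mt2 (−1.25, adjusted p = 0.00143) passed, 2 of 16 against 2.15%. Both settings leave out mouse A, which is in neither group compared here and had the highest values of both genes. The model pools the spread over all injected groups, so leaving out this mouse narrows the spread used for these genes. The calls are therefore no further support for the difference.

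Mice given both agents differed widely. Mt1 read 12.67 in mouse A, and 10.42, 9.65, 10.88 and 9.68 in mice C to F. Mt2 read 11.75 in mouse A, and 8.70, 8.10, 9.10 and 8.22 in the others. Mouse A had the highest Mt1 and Mt2 values of the 52 arrays. The others overlapped the saline mice for both genes and the arsenite mice for Mt1, and their Mt2 values were all above those of the arsenite mice.

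The combined group had an Mt1 mean of 10.66 ± 1.24 (SD, n = 5), a change from saline of 0.09 (−0.76 to 0.95), and an Mt2 mean of 9.17 ± 1.50, a change of 0.24 (−0.71 to 1.20). Without mouse A these changes were −0.41 (−1.02 to 0.20) and −0.40 (−0.93 to 0.12). With batch as a block over all 5 mice they were 0.31 and 0.44, and 0 of 16 passed, against 2.22% of all probe sets. Without the block 0 of 16 passed, against 0.766%. The sign of the change turned for both genes without mouse A, whose array is from batch 1, and for Mt1 also without saline mouse D (−0.07) or E (−0.03).

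Set against the single agents, the mean of the combined group lay nearer to dexamethasone with mouse A and about midway without it. The change from dexamethasone was −0.12 (−0.97 to 0.73) for Mt1 and −0.00 (−0.95 to 0.95) for Mt2, and without mouse A it was −0.62 and −0.65. In that comparison 0 of 16 passed, against 0% of all, and 0 of 16 had no overlap, against 0.429%. The change from arsenite was 1.13 (0.22 to 2.03) for Mt1 and 1.28 (0.27 to 2.30) for Mt2 with adjusted p of 0.33 and 0.31, and without mouse A it was 0.63 and 0.64. Here 0 of 16 passed, against 0.688% of all, and also with batch as a block, against 0.979%. Mt2 was the 1 probe set of 16 without overlap, as were 4.22% of all.

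The interaction, which is the arsenite change in mice given dexamethasone minus that in mice given none, was 0.91 (−0.33 to 2.16) for Mt1 and 1.04 (−0.35 to 2.43) for Mt2. The batch block gave −0.03 (−0.98 to 0.92) and 0.19 (−1.17 to 1.55). Without mouse A it was 0.41 and 0.39. In neither fit did any of the 16 probe sets pass, against 0% of all with and 0% without the block. All of these intervals include 0.

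**Figure D2:**
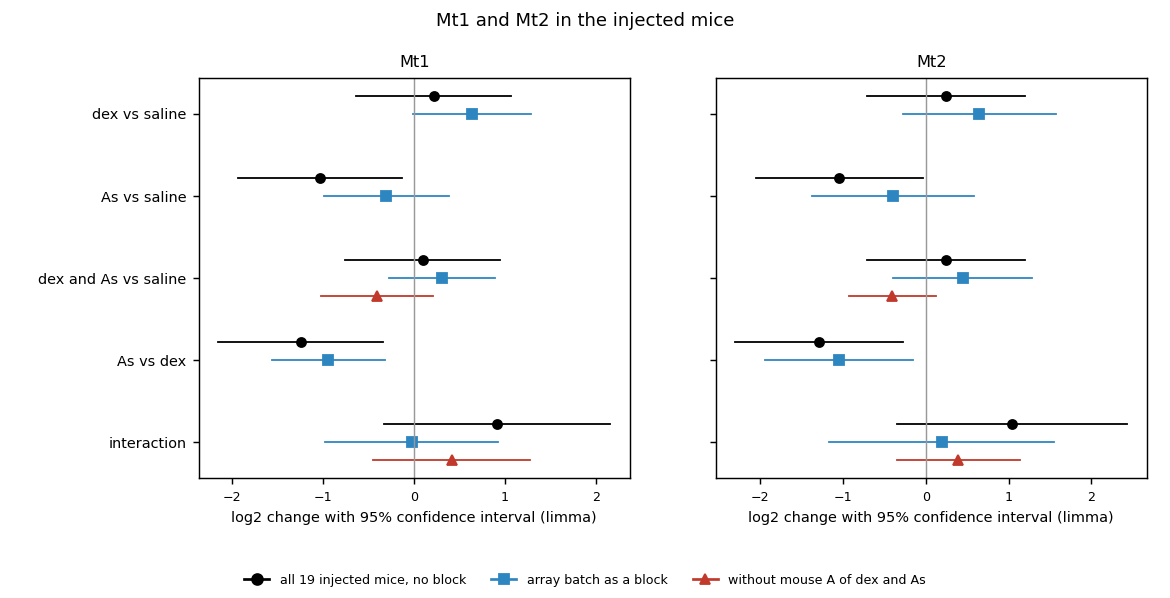
Log2 change of Mt1 (left) and Mt2 (right) in the injected mice, with 95% confidence intervals from limma, for all 19 mice, with the array batch as a block, and without mouse A of the combined injection where that mouse enters the comparison. The arsenite changes against dexamethasone stay below 0 in both fits, while the interaction of Mt1 moved to −0.03 with the block.

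The rank product, the test of the study's methods, ranks probe sets by fold change in all pairs of mice. With its estimate of false positives below a share of 0.05, it listed Mt1 and Mt2 as lower with arsenite than with saline, 2 of 16 against 0.697% of all probe sets. It listed Mt1, Mt2 and the dimmer Slc39a8 probe set as lower with arsenite than with dexamethasone, 3 of 16 against 2.98%, and the same 3 as higher in the combined group than with arsenite, 3 of 16 against 2.64%. It also listed the dimmer Mt1 probe set as lower with dexamethasone than with saline, 1 of 16 against 2.36%, and Mt1 and Mt2 as higher in saline mice than in uninjected AIN control mice, 2 of 16 against 0.582%. The lists rest on the same mice and batches as the fits above.

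Other readouts of the injected mice were set beside the metallothioneins. Of 16 known glucocorticoid targets, 0 passed with dexamethasone against saline (0.651% of all probe sets) and 1 passed in the combined group (0.766% of all), the sulfotransferase gene Sult1a1 at 0.96 (SE 0.21, limma adjusted p = 0.032), named after its values were seen. Sult1a1 was 0.90 with dexamethasone (adjusted p = 0.051) and fell by 1.56 with arsenite against dexamethasone (adjusted p = 0.0021). The medians of the list were −0.10 with dexamethasone, −0.52 with arsenite and 0.16 with both, where the medians of all probe sets were 0.00, 0.01 and 0.01. The brightest members were Nfkbia (inhibitor of NF-κB), the transcription factor gene Klf9, the phosphatase gene Dusp1 and Errfi1. In the dexamethasone mice Klf9 was 0.24 and Dusp1 −0.04 from saline (adjusted p = 0.74 and 0.99).

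Stress genes that arsenite is known to induce were likewise not called against saline. Of 8 heat shock genes 0 passed in any of the 7 injection comparisons, in 3 of which 0% of all probe sets passed and in the others 0.651% to 0.901%. The list medians were 0.24 with dexamethasone, 0.52 with arsenite and 0.01 with both. Hsp90aa1 was 0.61 and the chaperone gene Hspa8 0.38 with arsenite (adjusted p = 0.69 each). Hspa1a and Hspa1b, named after their values were seen, were 1.57 and 1.40 from saline with dexamethasone. With both agents they were 0.46 and 0.10 from saline (limma adjusted p from 0.23 to 0.98 in these comparisons). Arsenite against dexamethasone gave −0.51 and 0.17 for them (limma adjusted p = 0.84 and 0.96). Both genes thus averaged above saline in the arsenite mice as well, and the higher level was not particular to dexamethasone. Of 15 NRF2 targets 12 were measured and 0 passed against saline, and the list medians were 0.00, 0.06 and 0.14. The glutathione reductase gene Gsr was higher with arsenite than with dexamethasone (0.76, SE 0.17, adjusted p = 0.029), also named after its values were seen. Gsr was −0.52 from saline with dexamethasone (SE 0.16, limma adjusted p = 0.16), so the 0.76 includes this lower level and is not a rise from saline of that size. Fth1, the ferritin heavy chain and brightest of the list, was 0.07 with arsenite (adjusted p = 0.86). The 15 genes of interleukin 6 and the acute phase, another known inducer of metallothioneins, had 0 called and medians of −0.04, −0.07 and −0.05.

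Markers of other cells were high or low in single mice. In the combined group mouse A had a mean neutrophil marker level of 10.05, against 7.16 to 9.82 in the other 18 injected mice, and an erythroid level of 7.40 against 5.33 to 6.98. It was outside the range of the others in 4 of 14 marker lists, being below it for T cells and thymus, and in 2 of 8 lists of function, the glucocorticoid targets (11.24, against 9.40 to 10.79) and the NRF2 targets (8.16, against 7.53 to 7.96). The neutrophil level ran from 7.16 to 10.05 in the combined group, 7.23 to 7.80 with dexamethasone, 7.25 to 9.82 with arsenite and 7.23 to 9.55 with saline. The fat level ran from 4.94 to 7.02 with arsenite and from 5.86 to 10.30 with saline, where mouse E was highest and also had the highest T cell (8.57) and thymus (8.18) levels of the injected mice. Their part in the metallothionein values was not tested.

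During chronic exposure on the AIN-76A diet, Mt1 and Mt2 overlapped those of control mice in each exposed group. Mt2 read 8.15, 9.76 and 8.79 in the 3 mice drinking 100 ppb, against 8.03, 8.81, 7.85, 7.65 and 8.33 in control mice. Its change was 0.77 (0.13 to 1.41, limma adjusted p = 1.00), where the unadjusted p of limma was 0.022 and the exact permutation test gave p = 0.125. Without mouse C the change was 0.34, and without mouse A it was 1.14. On the low quality array of mouse B, left out, Mt2 read 10.91. Mouse C also had the highest neutrophil marker level of these 3 mice, which ran from 7.38 to 10.74, against 6.16 to 9.58 in control mice. The part of neutrophils in this Mt2 difference was not tested. Mt1 read 10.48, 10.42 and 10.53 at 100 ppb, against 10.49, 10.60, 9.48, 9.19 and 9.96 in control mice, a change of 0.53 (−0.23 to 1.30).

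At 10 ppb in water on the AIN-76A diet the log2 difference from control was 0.04 (−0.66 to 0.74) for Mt1 and −0.09 (−0.68 to 0.50) for Mt2, and in food it was −0.11 and −0.05. None of the 16 probe sets passed in the 3 comparisons, nor did any of all probe sets (0% for 10 ppb water, 0% for 100 ppb water, 0% for food). On the LRD-5001 diet the changes of Mt1 and Mt2 were 0.04 and 0.08 at 10 ppb in water, 0.29 and 0.22 at 100 ppb and 0.37 and 0.46 in food, and each 95% interval included 0. There too 0 of 16 passed, and 0%, 0% and 0% of all. The difference in response between the diets, AIN minus LRD, was 0.24 for Mt1 and 0.54 for Mt2 at 100 ppb in water, and 0 of 16 passed at any exposure (0%, 0% and 0% of all). Without AIN 10 ppb water mouse C, 471 of all probe sets passed in the difference at 10 ppb in water, and still 0 of 16.

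The control groups were also set against each other, and neither metallothionein passed in limma. The saline mice were above the uninjected AIN control mice by 0.62 for Mt1 and 0.80 for Mt2 (0.03 to 1.56, limma adjusted p = 1.00), with 0 of 16 passing against 0.00222% of all probe sets, and 1 of 16 without overlap, a dimmer Mtf1 probe set, against 0.999%. The LRD control mice were above the AIN control mice by 0.22 for Mt1 and 0.23 for Mt2, with 0 of 16 against 0.0133%. The arsenite mean of Mt2 was thus 7.89, against 8.13 ± 0.45 in uninjected AIN control mice and 8.93 in saline mice. In the order of the 12 group means, from 10.78 with dexamethasone to 9.53 with arsenite, Mt1 had 2 of 11 neighbouring pairs whose gap exceeded the smaller SD of the pair. These were LRD 10 ppb food over AIN 100 ppb water, where the 3 mice of the second group had an SD of 0.05, and AIN 10 ppb food over arsenite. For Mt2 the order ran from dexamethasone (9.17) to arsenite (7.89), again with 2 of 11, LRD control over AIN control and AIN 10 ppb water over arsenite.

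Mt1 and Mt2 varied together across mice. Over the 52 arrays, after each set had been centered on the mean of its control group, Pearson's r between them was 0.88, and 0.85 without mouse A of the combined injection. The correlation is a description, since the arrays share batches. The other genes did not follow this pattern: r with Mt1 was −0.45 for Mtf1, −0.35 for Slc30a1, −0.20 for Slc39a8 and −0.18 for Slc39a14. Without mouse A of the combined injection these were −0.40, −0.53, −0.23 and −0.19. Mtf1 and Slc39a14 had 0.65.

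**Figure D3:**
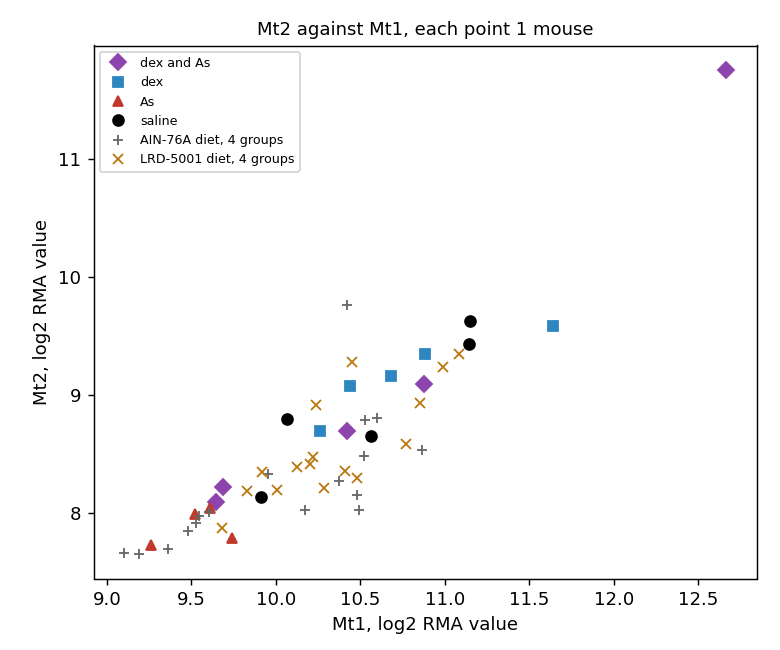
Log2 RMA value of Mt2 against that of Mt1, each point 1 of 52 mice, with the 4 injected groups and the 4 groups of each diet marked apart. The points lie along 1 band, with mouse A of the combined injection at 12.67 and 11.75. The 4 arsenite mice lie at its lower end together with uninjected AIN-76A mice. The lowest Mt1 value is 9.10 (AIN 10 ppb food), and the lowest Mt2 value is 7.65 (AIN control).

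The genes most like Mt1 by this correlation, among 9513 genes above log2 6, were Mt2, Rap1gap (0.84), Spsb1 (0.83), Pgrmc2 (0.83) and Dusp23 (0.81). Those most like Mt2 were Mt1, Ppp1r21 (0.77), the cell cycle inhibitor gene Cdkn1a (0.75), Rap1gap (0.74) and Spsb1 (0.74). Without mouse A, r between Ppp1r21 and Mt2 was 0.63. Slc30a1 was most like Gxylt1 (0.85), Tanc1, Gab1, Hnrnpul2 and Tbx3, and Slc39a8 most like Mospd2 (0.82), Arhgef26, Phldb2, Tjp1 and Sh3d19. For Mtf1 they were P4ha1 (0.84), Arfgef1, Fip1l1, Atp8b1 and Fnip2. Slc39a14 reached 0.68, with Usp47, followed by Nedd1, Crem, Cebpg and Tex2.

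Mtf1, the metal sensor (chromosome 4, 124802549 to 124849800), had its highest group mean in arsenite mice by the brightest of its 5 probe sets. This probe set read 7.60, 7.26, 7.56 and 7.54 in arsenite mice A, B, C and F, against 7.09, 7.36, 7.28, 6.83 and 7.09 in saline mice B to F. The groups overlapped through arsenite mouse B. The change was 0.36 (0.05 to 0.67, limma adjusted p = 0.70, exact permutation p = 0.0397), and the difference from dexamethasone was 0.32 (0.01 to 0.63, adjusted p = 0.47). The dexamethasone and combined groups were 0.04 and −0.00 from saline. Batch 1, absent from the arsenite group, had its Mtf1 values below the group mean on all 10 arrays, and within batches 2 and 5 arsenite minus saline was 0.31 and 0.72. With batch as a block the change was 0.40 (adjusted p = 0.49). A second Mtf1 probe set differed by 0.20 from saline (−0.06 to 0.45). The other 3 were −0.09, −0.02 and −0.14 from saline with arsenite (adjusted p from 0.89 to 0.99), and the first of these was −0.44 and −0.24 within batches 2 and 5.

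Slc30a1, the exporter gene under MTF-1 (chromosome 1, 191906697 to 191913248), was slightly above saline in all 3 treated groups. Its brightest probe set averaged 9.35 ± 0.17 with both agents, 9.33 ± 0.16 with dexamethasone, 9.35 ± 0.15 with arsenite and 9.11 ± 0.13 with saline. The changes were 0.24 (0.02 to 0.47), 0.22 (−0.01 to 0.44) and 0.24 (0.00 to 0.48), with limma adjusted p of 0.46, 0.57 and 0.75. These 3 comparisons share the saline mice. Within shared batches the difference from saline was −0.09, 0.04 and 0.38 with dexamethasone in batches 1, 2 and 5. It was 0.20 and 0.38 with arsenite in batches 2 and 5, and 0.23 to 0.31 in the 4 batches shared with the combined group. The AIN control mice set beside saline next belong to another set. Saline mice in turn were below the AIN control mice, by −0.24 (−0.46 to −0.02, adjusted p = 1.00), and AIN control mice averaged 9.35 ± 0.13, at most 0.02 from the 3 treated means.

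The dimmer Slc30a1 probe set was 0.31 above saline in the combined group, where it was the 1 of 16 without overlap, as were 2.18% of all. It was 0.30 above saline with dexamethasone. On the LRD-5001 diet the brightest Slc30a1 probe set averaged 9.61 ± 0.18 in control mice, against 9.35 in AIN control mice, a change of 0.26 (0.03 to 0.49, adjusted p = 1.00). By this probe set the highest 4 of the 12 group means of Slc30a1 were the 4 groups on this diet. Neighbouring means differed by less than the smaller SD in 10 of 11 pairs. By the dimmer probe set LRD control was above AIN control as well, by 0.22. The dimmer probe set did not have the order of the 12 means, since LRD 10 ppb food averaged 5.11, below AIN control (5.16). By it dexamethasone (5.45) was also above LRD control (5.37).

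Slc39a8, which encodes ZIP8 (chromosome 3, 135816882 to 135888572), had group means that spanned 0.41 by its brightest probe set. In the combined group this read 10.81, 11.11, 10.92, 10.90 and 10.93 in mice A, C, D, E and F, against 10.66, 10.84, 10.76, 10.79 and 10.77 in saline mice. The change was 0.17 (exact permutation p = 0.0159), but did not pass in limma. At 10 ppb in water on the AIN-76A diet mice A and E read 10.05 and 10.11, against 10.50 to 11.22 in control mice, and mice C and D read 11.30 and 10.72.

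The dimmer Slc39a8 probe set had group means from 7.11 at 10 ppb in water to 8.50 at 10 ppb in food, both on the AIN-76A diet. In the same 10 ppb water mice it read 6.53 and 5.75 in mice A and E, against 7.82 to 8.40 in control mice. The change was −0.93 (limma adjusted p = 0.51), and the rank product listed it, 1 of 16 against 0.437% of all. Mouse A had a fat marker level of 10.74 and a muscle level of 10.39, and mouse E had a thymus level of 9.77, where the control mice had 5.41 to 7.07, 3.89 to 8.41 and 4.31 to 4.49. The part of these other tissues in the Slc39a8 values was not tested.

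Slc39a14, which encodes ZIP14, showed no ordered difference among groups by its brightest probe set. Its brightest probe set averaged 6.63 ± 0.29 with arsenite, the highest group, and 6.49 ± 0.18 with saline, a difference of 0.14 (exact permutation p = 0.42). At 10 ppb in water on the AIN-76A diet it averaged 6.19 ± 0.38, the lowest group, with mouse D at 5.62 and the other 3 mice at 6.32 to 6.43. In 0 of 11 neighbouring pairs of group means did the gap exceed the smaller SD. At p = 0.127 by exact permutation the mice at 10 ppb did not pass against control mice, which averaged 6.54 ± 0.24. A dimmer Slc39a14 probe set went the other way with arsenite, where it had its lowest group mean (4.43, against 4.74 with saline). Its difference was −0.31 (exact permutation p = 0.0238, unadjusted over 224 such tests of all member probe sets), and −0.44 and 0.04 within shared batches. The remaining probe sets were 0.05 and 0.001 from saline with arsenite.

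**Figure D4:**
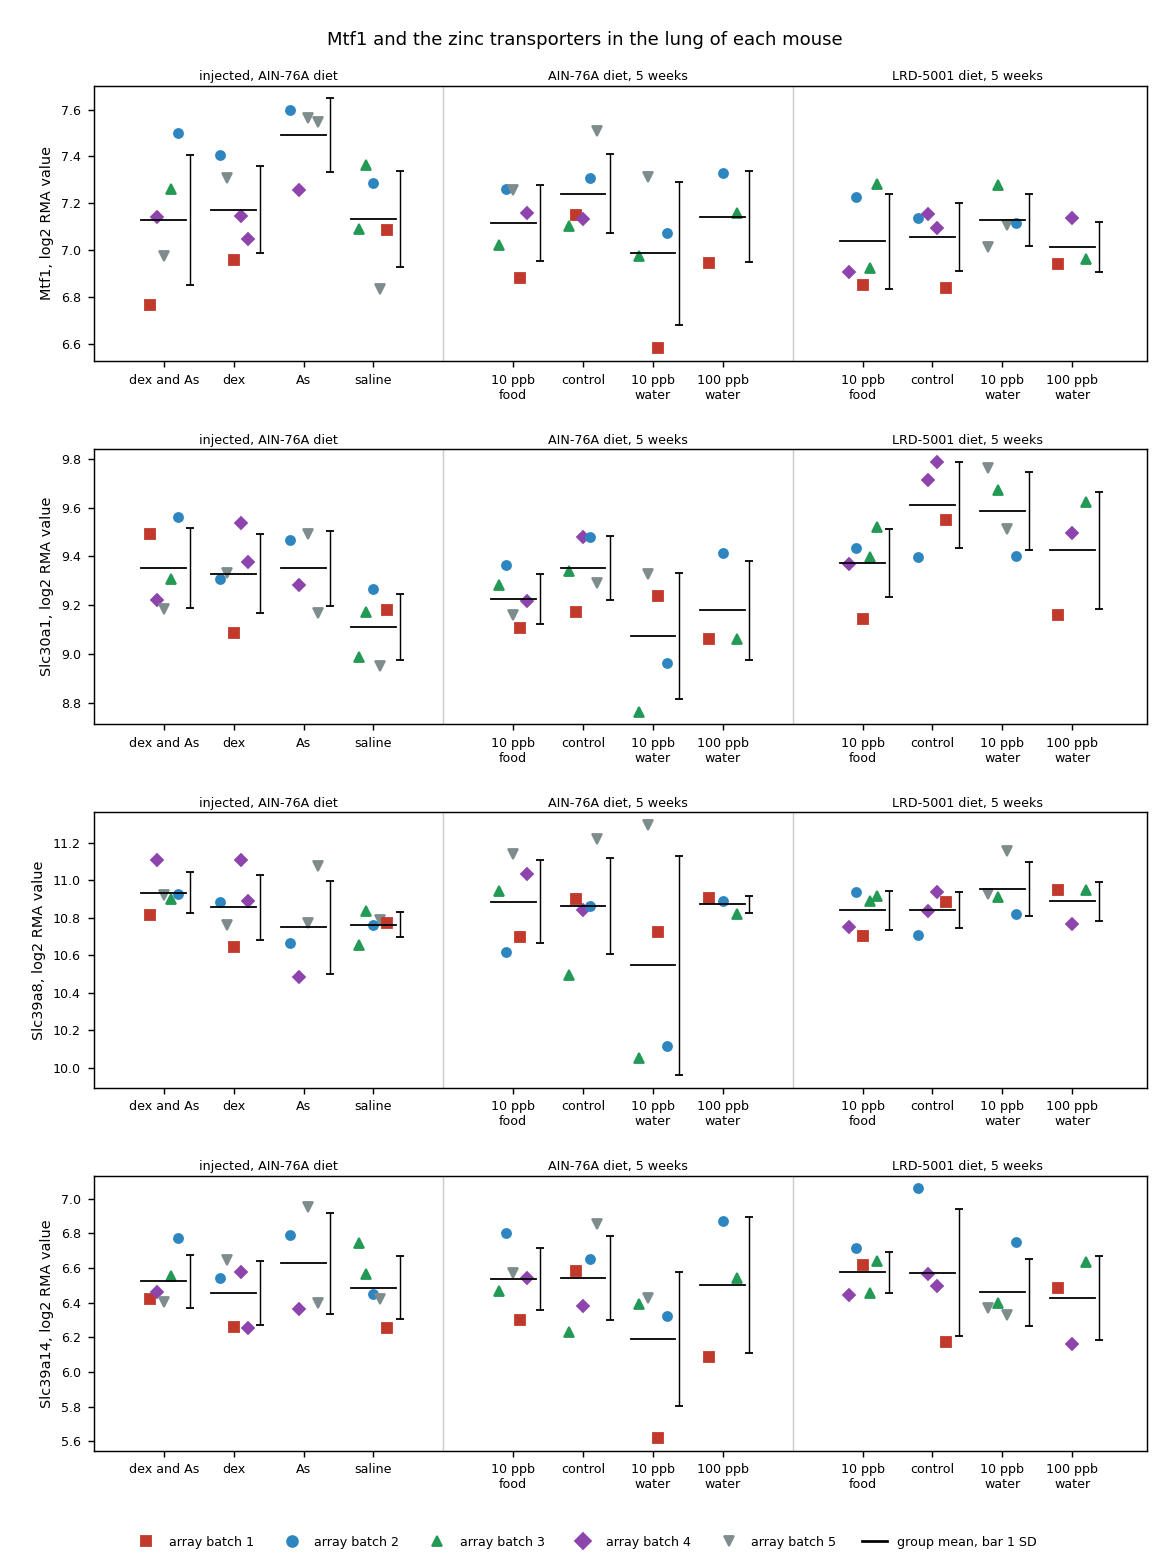
Log2 RMA value of the brightest probe set of Mtf1, Slc30a1, Slc39a8 and Slc39a14 (from top to bottom) in each mouse, with marker shape and color for the array batch, the group mean as a line and 1 SD as a bar; the vertical scale differs between genes. Mtf1 is highest with arsenite (mean 7.49), Slc30a1 is highest on the LRD-5001 diet, and 2 of the 4 mice at 10 ppb in water on the AIN-76A diet are low for Slc39a8.

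Probe sets of 1 gene did not always have the same sign, as given above for Mtf1 and Slc39a14. The second, dimmer Mt1 probe set was −0.65 from saline with dexamethasone (limma adjusted p = 0.54), whereas the one described above was 0.21. With arsenite both were below saline, the dimmer with a change of −0.68 (adjusted p = 0.75). The probe set that stands for Mt1 has a name ending in _s_at, by which Affymetrix marks probes that can match several related transcripts, so that a share of its signal from another metallothionein cannot be told apart.

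The rest of the zinc and copper genes were not called against saline. Mt3 and Mt4, the metallothioneins of brain and of stratified epithelium, were −0.21 and −0.01 from saline with arsenite and −0.01 and 0.85 with dexamethasone (limma adjusted p from 0.76 to 1.00). Of 9 other SLC30 exporters and 12 other SLC39 importers, 0 passed in each of the 7 injection comparisons. The importer gene Slc39a11, named after its values were seen, was −0.55 from saline with dexamethasone and −0.48 with both (limma adjusted p = 0.053 and 0.094). With arsenite the exporter median was 0.17 and the importer median 0.08, where that of all probe sets was 0.01. The brightest exporters were Slc30a5 (0.38 with arsenite), Slc30a9 (0.32), Slc30a4 (0.41) and Slc30a7 (0.23), with limma adjusted p from 0.69 to 0.83. The brightest importers, Slc39a4, Slc39a7, Slc39a1 and Slc39a6, were −0.01 to 0.27 from saline with arsenite. Of 10 copper genes 0 passed, with a median of −0.06. Among the brightest, the superoxide dismutase gene Sod1, the ferroxidase gene Cp, the chaperone gene Atox1 and Commd1 were −0.25 to 0.19 from saline with arsenite.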

How the data were processed

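Lung RNA of each mouse was hybridized to 1 Affymetrix mouse whole-genome array. The deposited log2 values were made by the authors from the raw arrays by RMA. The sources used here do not give which arrays entered 1 normalization, and raw arrays were not used. Of all probe sets 64 controls were left out and 45037 tested, of which 34945 carry 1 gene symbol, 932 several and 9160 none. For a gene with more than 1 probe set, the brightest by its mean on the 52 arrays stands for it.

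Comparisons used limma 3.58.1 (R 4.3.3), with 1 linear model over the mice of a set (over all 52 arrays across sets), empirical Bayes with trend and Benjamini-Hochberg adjustment over all probe sets at 0.05, after a test on simulated data. Single genes were compared by exact permutation over mice, two-sided. The rank product was written in Python 3.11.15 with 100 random orderings. Motifs were searched in the 250 bases before RefSeq starts.

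Mice were grouped by their labels. The letters shared between groups did not pair mice: in the injected set the median correlation of deviations was −0.05 for 22 same-letter pairs and 0.03 for others, against 0.13 for 25 same-batch pairs. No 2 of the 52 arrays held identical values. The p-values of limma and of exact permutation rest on the spread between mice of a group. Those of the rank product do not, since its random orderings shuffled the values of each array over probe sets. They tell how extreme the ranks of a probe set are among all probe sets. The number of arrays, 3 to 5 per group, limits precision. The members and lists were chosen with earlier results of these data known. The rule named all member probe sets, the 5 most correlated genes of each gene and up to 4 of each list, the brightest where none passed with arsenite. Alternatives were a filter on dim probe sets (log2 5 in at least 4 arrays), array batch or replicate letter as a block, array weights, median centering, quantile normalization, all 55 arrays, 1 fit over all 52, the rank product, within-batch differences and leaving out each mouse. All arrays with the batch as a block, leaving out batch 1, and the block without 1 mouse were added after the data had been seen.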

Additional observations from a re-analysis of the deposited data

Results flagged for a closer look

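A sample far from the rest of its group, by Dixon's criterion at 95%, was found in 4 of 60 combinations of gene and group, where chance gives about 1 in 20. In the combined injection mouse A had an Mt2 value of 11.75, against 8.10 to 9.10 in the other 4 mice. In the arsenite group mouse B had an Mtf1 value of 7.26, against 7.54 to 7.60 in the others. For Slc39a14, mouse D at 10 ppb in water on the AIN-76A diet read 5.62, against 6.32 to 6.43, and mouse E at 10 ppb in water on the LRD-5001 diet read 6.75, against 6.33 to 6.40.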

How the results depend on the processing

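Under limma 0 of the 16 probe sets passed in all 18 comparisons, and also with the filter on dim probe sets, either block, array weights, median centering, quantile normalization, all arrays, 1 fit over all 52 arrays and each mouse left out (0 to 0). Exceptions were arsenite against dexamethasone without the arrays of batch 1 (1) and with the batch block without mouse A of the combined injection (2). Both leave out that mouse, whose high Mt1 and Mt2 values widen the pooled spread. By the plain p of the rank product, the members listed were 5 (dexamethasone against saline), 5 (arsenite), 8 (both), 3 (both against dexamethasone), 6 (both against arsenite), 5 (arsenite against dexamethasone), 2, 3 and 3 (AIN 10 ppb water, 100 ppb water and food), 1, 5 and 3 (LRD), 5 (LRD against AIN control) and 5 (saline against AIN control). That rule listed 9% to 14.7% of all probe sets in these 14 comparisons. By its share of false positives they were 1, 2, 0, 0, 3, 3, then 1, 0 and 0, then 0, 0 and 0, then 0 and 2, with 0.0289% to 2.98% of all.

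The sign of the dexamethasone change turned for Mt1 with the replicate block (−0.12), array weights (−0.15) and without batch 1 (−0.003), and for Mt2 with the replicate block (−0.17) and array weights (−0.015). That of the combined change turned for Mt1 with array weights (−0.48), without batch 1 (−0.41) and with the batch block without mouse A (−0.089), and for Mt2 likewise (−0.41, −0.47 and −0.18). The interaction turned for Mt1 with the batch block (−0.028) and for both genes when mouse A was also left out (−0.29 and −0.23). The Slc30a1 change with arsenite was −0.49 with all arrays and −0.63 when these had the batch block. With the replicate block the arsenite change was −1.47 for Mt1 and −1.54 for Mt2 (limma adjusted p = 0.49 each) and the interaction 1.61 and 1.80 (adjusted p = 0.76 each), and the block changed no call of the members. Leaving out each mouse gave, for dexamethasone, −0.0019 to 0.36 (Mt1, lowest without dexamethasone mouse C) and 0.05 to 0.42 (Mt2). For arsenite it gave −1.20 to −0.89 and −1.24 to −0.87, for both agents −0.41 to 0.35 and −0.40 to 0.51, and for the interaction 0.41 to 1.17 and 0.39 to 1.31. The cause of these shifts was not tested.

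Probe sets called over the whole array moved more. For dexamethasone, the combined group, the combined group against arsenite and arsenite against dexamethasone they numbered 293, 345, 310 and 406, with the replicate block 115, 113, 164 and 187, with array weights 1178, 999, 654 and 869, with all arrays 11, 4, 29 and 29 and in 1 fit over all 52 arrays 515, 561, 665 and 668. Leaving out each mouse gave 66 to 386 (lowest without dexamethasone mouse E), 138 to 523 (without saline mouse F), 73 to 419 and 60 to 396 (both without arsenite mouse C). The precision is set by 3 to 5 mice per group and by batches that the groups do not share evenly.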
